A study of Mus musculus with 6 samples.

Results

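Transcript levels of 9 complement genes, taken by name from 24809 genes in the table, were compared in C2C12 cells, an established mouse myoblast line. They comprised the C1 protease genes C1ra and C1s1, the component genes C4b and C3, the alternative pathway protease genes Cfb and Cfd, and the inhibitor genes Serping1, Cd55 and Cd59a. Cells with overexpression of Msx1, a homeobox transcription factor (n = 3 libraries), were set against control cells (n = 3), whose data columns name a vector. Neither the construct, its promoter, the number of clones nor the culture stage is given in the labels, so stage or density cannot be told apart from Msx1 itself. Whether replicates came from separate cultures is also not stated, and p-values then measure only the spread between these libraries, which may be technical. Levels are FPKM (fragments scaled by transcript length and by the library's mapped fragments), which allow comparison between genes per length. Changes are differences of log2(FPKM + 1), Msx1 minus control, with SE and adjusted p from limma, called at an adjusted p under 0.05. Cells were bulk samples, so fewer expressing cells and less RNA per cell cannot be told apart.

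The complement system is a set of plasma and membrane proteins that tags and lyses targets. It is started by antibody-bound C1 (classical pathway), by carbohydrate-binding lectins, or by the spontaneous turnover of C3 (alternative pathway), and all 3 routes meet in the cleavage of C3. Serine proteases act in sequence, each cutting the next, and soluble and membrane-bound inhibitors hold the cascade in check on host cells. Liver supplies most plasma complement, while fibroblasts, adipocytes and macrophages are among the cells known to make components locally.

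Msx1 itself was at 1004, 943.7 and 912.1 FPKM in Msx1 libraries, against 7.99, 7.13 and 7.54 FPKM in control libraries, 126-fold higher in Msx1 cells by the means. Of 12371 genes that passed the minimum mean of 0.5 FPKM, 54.4% were called, 22.0% higher and 32.4% lower, and the groups did not overlap for 62.3%. Higher calls made up 40.4% of all calls on the deposited values, 51.2% with median-of-ratios scaling and 55.4% when totals were equalised leaving out Msx1. Of 7 myoblast markers tested, 1 was higher (Pax7), 3 lower (Myf5, Des and Chrna1) and 3 not called, among them the myogenic regulator Myod1 at 21.4 ± 0.677 FPKM in Msx1 and 23.3 ± 0.924 FPKM in control cells (SD, n = 3 each). Myf5, another myogenic regulator, averaged 1.64 ± 0.0968 FPKM in Msx1 and 9.01 ± 0.396 FPKM in control cells (log2 change -1.92, adjusted p = 2.77e-07 by limma). Msc did not exceed 0.18 FPKM in any library. Pan-leukocyte Ptprc and the macrophage marker Adgre1 were listed at 0 in every library. Hepatocyte markers were not evenly spread. Albumin (Alb) was listed at 0, 0 and 4.43 FPKM in Msx1 replicates 1, 2 and 3, and at 0, 13.6 and 0 FPKM in control replicates 1, 2 and 3. The summed FPKM of 8 hepatocyte markers was 7.73 in Msx1 replicate 3 and 22.6 in control replicate 2, and from 0 to 0.44 in the other 4 libraries. Since liver makes complement, the counts over the 9 genes and over the wider pathway are also given without Msx1 replicate 3 and control replicate 2, a setting chosen after seeing the data.

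RefSeq sequences (GRCm38.p6) of the 250 bases before a start site were matched for 6 of the 9 genes (C1ra, C1s1, C3, Cfd, Cd55 and Cd59a), and C4b, Cfb and Serping1 had no entry. The first pair is shown because C1ra and its tandem copy C1rb share a stretch at shifted distances from their start sites. Capitals mark the 99 aligned bases, 93 of them identical, which lie from -99 to -1 in C1ra (chr6:124512371-124512620, + strand) and from -250 to -152 in C1rb (chr6:124570180-124570429, + strand).
C1ra: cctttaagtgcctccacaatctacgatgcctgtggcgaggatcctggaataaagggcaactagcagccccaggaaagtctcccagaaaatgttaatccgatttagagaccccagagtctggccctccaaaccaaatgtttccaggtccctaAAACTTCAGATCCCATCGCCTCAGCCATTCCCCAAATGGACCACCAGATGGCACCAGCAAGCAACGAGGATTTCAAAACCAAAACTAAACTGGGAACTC
C1rb: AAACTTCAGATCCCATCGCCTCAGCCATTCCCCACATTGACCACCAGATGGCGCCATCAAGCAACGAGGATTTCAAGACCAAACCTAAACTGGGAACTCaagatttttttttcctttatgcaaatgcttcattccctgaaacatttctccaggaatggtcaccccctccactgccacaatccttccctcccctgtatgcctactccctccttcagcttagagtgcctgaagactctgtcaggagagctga

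The second pair belongs to the genes with the largest rises among the 9, C3 (chr17:57228137-57228386, - strand) and C1s1 (chr6:124542360-124542609, - strand). Capitals mark a match to TTGCNNAA, a core bound by C/EBP factors, read on either strand.
C3: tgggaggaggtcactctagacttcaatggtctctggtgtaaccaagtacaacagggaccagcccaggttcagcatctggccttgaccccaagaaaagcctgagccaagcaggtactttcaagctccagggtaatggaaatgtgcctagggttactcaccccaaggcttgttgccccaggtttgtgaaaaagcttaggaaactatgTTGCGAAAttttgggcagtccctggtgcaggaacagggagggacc
C1s1: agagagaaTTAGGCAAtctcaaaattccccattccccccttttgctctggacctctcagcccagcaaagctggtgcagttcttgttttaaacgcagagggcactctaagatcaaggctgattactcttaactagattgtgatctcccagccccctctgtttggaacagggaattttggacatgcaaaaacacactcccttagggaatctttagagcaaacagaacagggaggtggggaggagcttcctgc

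In all, 5 motifs were searched on both strands, and no matches of different motifs overlapped in these 6 genes. The C/EBP core, added after the sequences had been seen, occurred in 2 of the 6 genes (from -45 to -38 in C3 and from -242 to -235 at the first of 2 C1s1 start sites) and in 9.56% of 32851 mouse upstream regions of the same length. The homeodomain core TAATTG, a sequence Msx proteins can bind, occurred in 0 of the 6 and in 7.17% of all regions. An interferon-stimulated response element (a pair of GAAA runs 2 bases apart) lay in the Cd59a region, and in 2.98% of all regions. The STAT element TTCNNNGAA (7.02% of all regions) and the AP-1 site TGACTCA (4.46%) were not found in the 6. Among the near copies, C1rb (log2 change 0.92) held a C/EBP core from -135 to -128 and a STAT element from -119 to -111, unmarked above. No match to any motif searched lay in the regions of C1ra (log2 change 0.90), C1s2 (1.52) or Cd59b. A match describes letters in a window and shows no binding.

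Of the 9 complement genes, 7 passed the minimum for testing. Among these, 5 were called higher (background 22.0%), namely C3, C1s1, C1ra, Cfb and Cd59a, and 2 lower (background 32.4%), namely Cd55 and Serping1. Cd55, averaging 0.47 FPKM in Msx1 and 4.36 FPKM in control cells, passed the minimum only through its control level. C3 was 6.45-fold and C1s1 3.03-fold higher in Msx1 cells, while Cd55 was 9.27-fold lower. The median change of the 7 was 0.85 on the log2 scale, against -0.07 for all genes tested. The same counts of 5 higher and 2 lower were obtained without the 2 libraries that held Alb, and each of the 7 was called in the same direction in all 17 alternatives. The groups did not overlap for 7 of 7, against a background of 62.3%.

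**Figure D1:**
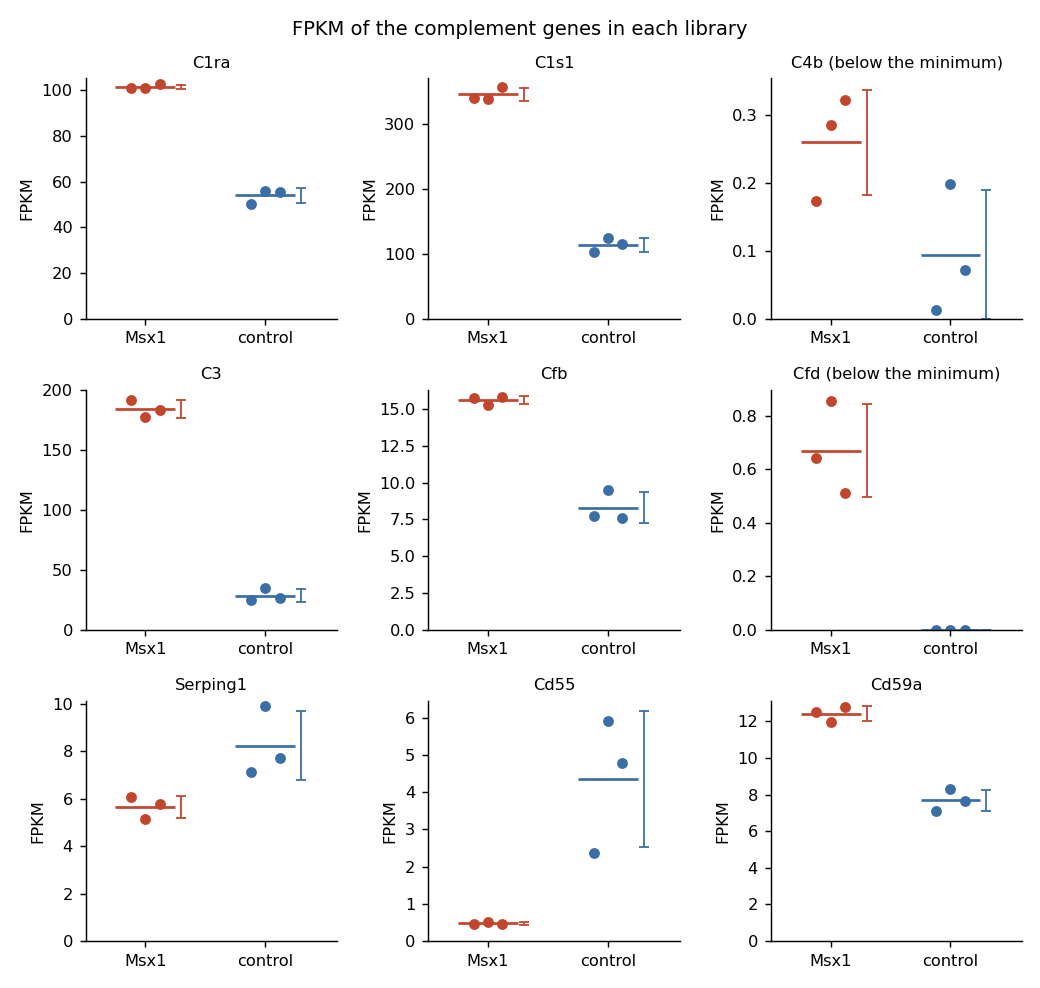
FPKM of the 9 complement genes in each library (points; Msx1 left, control right; horizontal line, mean; vertical bar, SD, n = 3 each), each panel on its own axis from 0. C3 lies between 177 and 192 FPKM in Msx1 libraries and between 24.7 and 34.5 FPKM in control libraries, and Cd55 and Serping1 are the 2 genes with all Msx1 points below all control points.

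C1r and C1s are the serine proteases of the C1 complex: C1r activates C1s, which cuts C4 and C2. C1s1 (chromosome 6, 124530344 to 124542392, GRCm38.p6) had 340.1, 338.2 and 357.1 FPKM in Msx1 libraries, against 102.9, 124.2 and 114.8 FPKM in control libraries. Every Msx1 library exceeded every control library, and the highest member level in both groups was that of C1s1 (log2 change 1.59, SE 0.08, adjusted p = 1.43e-06). C1ra (chromosome 6, 124512621 to 124523440) had 100.9, 100.8 and 102.5 FPKM in Msx1 libraries, against 50.3, 55.9 and 55.6 FPKM in control libraries (log2 change 0.90, SE 0.06, adjusted p = 5.64e-06). The groups were again separate, with less spread among Msx1 libraries (SD 0.938 FPKM) than among control libraries (SD 3.13 FPKM). As the 2 protease genes rose by unequal amounts, C1s1 exceeded C1ra by 3.36 to 3.49 times in Msx1 libraries and by 2.05 to 2.22 times in control libraries.

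Mouse carries second copies of both protease genes beside them on chromosome 6. The matched transcripts are 98.1% identical over 2427 aligned bases for C1ra and C1rb, and 96.2% over 2657 for C1s1 and C1s2, so reads assigned to a copy are uncertain. C1rb averaged 30.9 ± 1.90 FPKM in Msx1 and 15.8 ± 1.72 FPKM in control cells (SD, n = 3 each; log2 change 0.92, adjusted p = 4.58e-05 by limma). C1s2 averaged 49.8 ± 0.783 FPKM in Msx1 and 16.7 ± 1.52 FPKM in control cells (log2 change 1.52, adjusted p = 1.15e-06 by limma). Each copy thus changed by nearly the amount of its partner. The C1s2 level was 0.142 to 0.146 of the C1s1 level in Msx1 libraries and 0.145 to 0.149 in control libraries, and part of the level of either copy may be reads of the other.

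C4 is the substrate of C1s, and in mouse C4b encodes it. C4b (chromosome 17, 34728139 to 34743902) was at 0.174, 0.285 and 0.322 FPKM in Msx1 libraries and at 0.0122, 0.199 and 0.0725 FPKM in control libraries, below the minimum for testing, and the groups overlapped. The highest control value lay in replicate 2, which held Alb, so the part of that trace RNA in it was not tested. Without a minimum, C4b was not called (log2 change 0.21, adjusted p = 0.073 by limma). Its neighbour and near copy C4a (an annotated transcribed pseudogene in GRCm38.p6) averaged 0.333 ± 0.0249 FPKM in Msx1 and 0.243 ± 0.0527 FPKM in control cells, and C2, the other substrate of C1s, stayed under 0.16 FPKM in every library. Protease transcripts were thus abundant in libraries where those of both substrates lay under 0.36 FPKM.

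C3 is the component cut by all 3 routes, and its fragment C3b marks surfaces. C3 (chromosome 17, 57203967 to 57228136) had 191.9, 177.1 and 183.3 FPKM in Msx1 libraries, against 24.7, 34.5 and 26.4 FPKM in control libraries (log2 change 2.66, SE 0.11, adjusted p = 8.06e-07). It ranked 73rd from the top among the changes of 12371 genes. Control replicate 2, with the highest Alb, was also the highest control library for C3. Without both libraries that held Alb, C3 averaged 184.5 FPKM in Msx1 and 25.6 FPKM in control cells (n = 2 each), a 7.22-fold difference (log2 change 2.80, adjusted p = 7.55e-06 by limma).

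Factor B, made from Cfb, binds C3b and forms the catalytic part of the alternative pathway convertase, and factor D (adipsin), made from Cfd, cuts factor B. Cfb (chromosome 17, 34856374 to 34862514) had 15.8, 15.3 and 15.8 FPKM in Msx1 libraries, against 7.74, 9.50 and 7.61 FPKM in control libraries (log2 change 0.85, SE 0.08, adjusted p = 7.71e-05). The groups did not overlap, and Msx1 libraries agreed within 0.271 FPKM (SD). Cfd (chromosome 10, 79890853 to 79892655) was at 0.641, 0.856 and 0.513 FPKM in Msx1 libraries and listed at 0 in all 3 control libraries. Its mean over 6 libraries, 0.335 FPKM, was below the minimum, so it is not among the 7 tested. It was called only in the fit without a minimum (log2 change 0.73, adjusted p = 5.23e-04 by limma). Adipoq, another adipocyte marker, was likewise at 0.27 to 0.82 FPKM in Msx1 libraries and listed at 0 in control libraries, whereas Plin1, Lep, Retn and Cidec were listed at 0 in every library. Of the other adipocyte markers listed, Pparg (1.315 FPKM in Msx1, 4.4 FPKM in control cells) and Fabp4 were called lower, and Lipe was not called.

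Serping1 encodes C1 inhibitor, a serpin that inactivates C1r and C1s. It (chromosome 2, 84765360 to 84775444) had 6.06, 5.16 and 5.77 FPKM in Msx1 libraries, against 7.12, 9.91 and 7.72 FPKM in control libraries (log2 change -0.46, SE 0.11, adjusted p = 0.00975). All 3 Msx1 libraries were below all 3 control libraries, by a small margin between 6.06 and 7.12 FPKM. The adjusted p lay between 0.00105 and 0.0491 over 17 alternatives, the highest of them when totals were equalised leaving out Msx1. Without both libraries that held Alb, Serping1 averaged 5.61 FPKM in Msx1 and 7.42 FPKM in control cells (n = 2 each; log2 change -0.35, adjusted p = 0.0305 by limma).

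The summed level of both C1 proteases over that of their inhibitor, a quantity in which library scaling cancels, was 72.8, 85.1 and 79.6 in Msx1 libraries, against 21.5, 18.2 and 22.1 in control libraries. The mean ratio was 79.2 ± 6.19 in Msx1 and 20.6 ± 2.10 in control cells (SD, n = 3 each), 3.85 times higher in Msx1 cells, with an exact two-sided permutation p = 0.1. That is the smallest p that 3 against 3 libraries allow. Every Msx1 library was above every control library for both proteases and below for Serping1. The ratio therefore had to separate the groups, and its p is no added support. Transcript ratios give no measure of protein or activity.

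Cd55 (decay-accelerating factor) takes C3 convertases apart on host cells, and Cd59a blocks the membrane attack complex. Cd55 (chromosome 1, 130429798 to 130465009) had 0.447, 0.511 and 0.453 FPKM in Msx1 libraries, against 2.36, 5.93 and 4.78 FPKM in control libraries (log2 change -1.80, SE 0.23, adjusted p = 3.68e-04). Msx1 libraries were uniformly low and control libraries uneven, with replicate 1 well below the other two. With a pseudocount of 0.1 in place of 1 the change was -2.87, since the Msx1 level is below the pseudocount of 1. Cd55 ranked 66th from the bottom among the changes of all genes tested. The antisense transcript Cd55os, which overlaps Cd55, was listed at 0, 0 and 0.0585 FPKM in Msx1 libraries and at 0.382, 0.382 and 0.266 FPKM in control libraries, and without strand the reads of both genes may be mixed. Cd55b, the second mouse copy, was listed at 0 in every library.

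Cd59a moved the other way from Cd55. It (chromosome 2, 104095753 to 104115410) had 12.5, 12 and 12.8 FPKM in Msx1 libraries, against 7.10, 8.29 and 7.63 FPKM in control libraries (log2 change 0.63, SE 0.07, adjusted p = 1.29e-04). The groups were separate, and 98.9% of the Cd59a level came from 1 of its 2 transcripts. Cd59b, whose transcript is 91% identical to that of Cd59a over 680 aligned bases, was at 0.62 ± 0.0554 FPKM in Msx1 and 0.494 ± 0.205 FPKM in control cells and was not called (adjusted p = 0.364 by limma). The Cd59a level was 23.4 to 28.3 times that of Cd55 in Msx1 libraries and 1.40 to 3.00 times in control libraries. C3 over the sum of both membrane inhibitors was 14.3 ± 0.495 in Msx1 and 2.39 ± 0.245 in control cells (SD, n = 3 each; exact two-sided permutation p = 0.1, the smallest possible). C3 alone already separated the groups, so this p is no added support.

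The 9 genes together summed to 668.5, 650.2 and 678.5 FPKM in Msx1 libraries, against 202.3, 248.4 and 224.6 FPKM in control libraries. C1s1 held 50.9% to 52.6% of that sum in Msx1 libraries and 50% to 51.1% in control libraries, so its share differed little while its level was 3.03-fold higher in Msx1 cells. The C3 share was 27.7% ± 0.917 in Msx1 and 12.6% ± 1.11 in control libraries (SD, n = 3 each; exact two-sided permutation p = 0.1, the smallest possible). The C3 level was already known to separate the groups, so this p is no added support. C1ra held 15.1% to 15.5% in Msx1 libraries and 22.5% to 24.9% in control libraries. Shares of all 3 inhibitors were lower in Msx1 libraries. Serping1 held 0.793% to 0.907% in Msx1 and 3.44% to 3.99% in control libraries. Cd55 held 0.0667% to 0.0786% in Msx1 and 1.17% to 2.39% in control libraries. Cd59a, which rose in level, held 1.84% to 1.89% in Msx1 and 3.34% to 3.51% in control libraries.

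**Figure D2:**
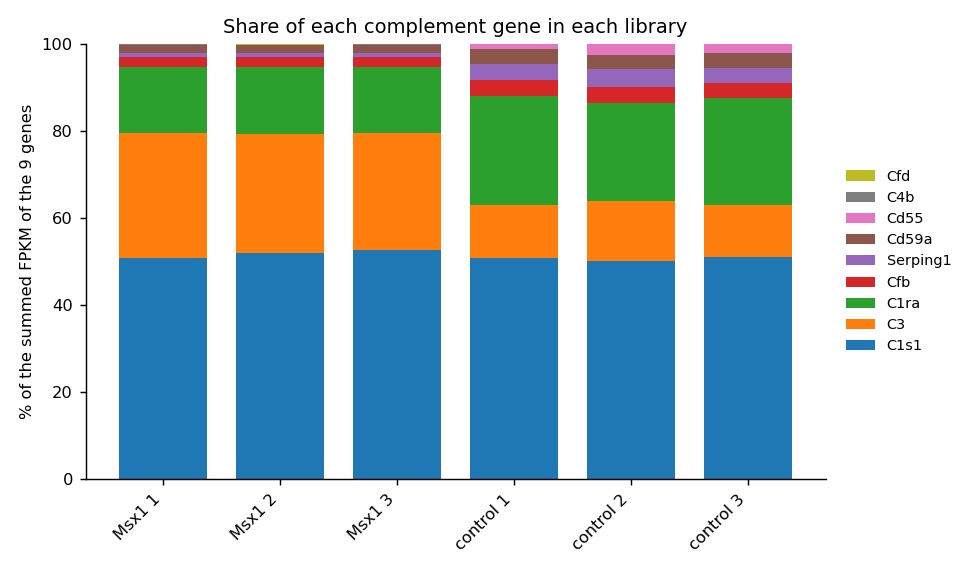
Share of each of the 9 genes in their summed FPKM (y axis, %) in each library, Msx1 left and control right. C1s1 fills 50% to 52.6% of every bar, C3 holds 27.0% to 28.7% in Msx1 and 11.8% to 13.9% in control libraries, and C4b and Cfd are too thin to see.

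Across the wider pathway, 62 genes in 6 lists by role, the 9 included, were in the table and 23 passed the minimum. Of these 13 were higher, 6 lower and 4 not called, with counts of 13 and 6 again without the libraries that held Alb, and a median change of 0.85 on the log2 scale. Leaving out the 9 genes, 8 of 16 were higher and 4 lower. The 8 include C1rb and C1s2, the near copies of C1ra and C1s1, so part of this count may repeat those members. The background was 22.0% higher and 32.4% lower. In the classical and lectin list, where both members and both near copies are counted, 5 of 7 tested genes were higher and 2 lower. Beside the C1 proteases, Colec12, a membrane collectin that binds microbial sugars, averaged 233 ± 13.1 FPKM in Msx1 and 95.9 ± 13.0 FPKM in control cells (log2 change 1.28, adjusted p = 2.10e-05 by limma). Masp1, a lectin pathway protease gene, fell to 86.7 ± 0.743 FPKM in Msx1 cells, against 123.7 ± 8.73 FPKM in control cells (log2 change -0.51, adjusted p = 2.50e-04 by limma), opposite to C1ra and C1s1. The recognition gene Fcna (ficolin A) fell to 0.308 ± 0.178 FPKM in Msx1 cells, against 0.749 ± 0.064 FPKM in control cells (log2 change -0.43, adjusted p = 0.0122 by limma). With a mean of 0.528 FPKM it passed the minimum only through its control level, and it could be tested in 13 of 17 alternatives. C1qa, C1qb and C1qc, which encode the recognition unit of C1, did not exceed 0.1 FPKM in any library.

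In the C3 and alternative pathway list 2 of 3 tested genes were higher, and Cfp (properdin, which stabilizes the convertase) was not called at 1.04 ± 0.168 FPKM in Msx1 and 0.997 ± 0.169 FPKM in control cells. Of the 7 terminal pathway genes only C8g passed the minimum, at 1.89 ± 0.30 FPKM in Msx1 and 2.33 ± 0.19 FPKM in control cells, and it was not called (adjusted p = 0.0896 by limma). The genes Hc (encoding C5), C6, C8a, C8b and C9 did not exceed 0.1 FPKM in any library, and C7 was listed at 0 in all 6. Apart from C8g, transcripts for the lytic end of the cascade were therefore at or near 0 in both groups. Among genes made mainly by liver, Hc, C8a, C8b, Vtn (vitronectin) and Mbl2 (mannose-binding lectin), singled out after their values were seen, were above 0 only in the libraries that held Alb. Vtn, for example, was at 0, 0 and 0.107 FPKM in Msx1 libraries and at 0, 0.355 and 0 FPKM in control libraries. Not all such genes kept to this, as Masp2, C6, Cfi and Cpn2 were also above 0 in libraries where Alb was listed at 0.

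Among the soluble regulators, Serping1 was lower, as given above. Clusterin (Clu), an inhibitor of the membrane attack complex and a chaperone, averaged 59.5 ± 0.734 FPKM in Msx1 and 13.9 ± 2.16 FPKM in control cells (log2 change 2.03, adjusted p = 1.34e-06 by limma). Of 5 membrane regulators tested 2 were higher, 1 lower and 2 not called. Thrombomodulin (Thbd), an anticoagulant receptor that also aids C3b inactivation, averaged 128 ± 2.34 FPKM in Msx1 and 15.9 ± 2.18 FPKM in control cells (log2 change 2.94, SE 0.09, adjusted p = 1.31e-07). Cr1l (Crry), the rodent membrane regulator that acts on C3b and C4b, was at 27.1 ± 0.366 FPKM in Msx1 and 26.3 ± 1.31 FPKM in control cells and was not called (adjusted p = 0.526 by limma), although it was when totals were equalised leaving out Msx1 (log2 change 0.15, adjusted p = 0.0303 by limma). Per length, Cr1l was the most abundant of the membrane regulators Cr1l, Cd59a and Cd55 in both groups.

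Receptor genes went both ways, with 2 of 4 tested higher and 2 lower. The integrin chain gene Itgb2 averaged 2.45 ± 0.229 FPKM in Msx1 and 0.878 ± 0.124 FPKM in control cells (log2 change 0.88, adjusted p = 7.14e-05 by limma), while its complement receptor partners Itgam and Itgax did not exceed 0.04 FPKM. Cd93, once proposed as a receptor for C1q, averaged 1.38 ± 0.185 FPKM in Msx1 and 0.15 ± 0.0117 FPKM in control cells (log2 change 1.05, adjusted p = 2.14e-05 by limma). Cd93 passed the minimum only through its Msx1 level. The C1q-binding proteins C1qbp (log2 change -0.27, adjusted p = 0.0292 by limma) and calreticulin Calr (-0.28, adjusted p = 0.0088 by limma) fell, and both act mainly inside cells. The C1qbp call was lost when totals were equalised leaving out Msx1 and under median-of-ratios scaling, and the Calr call after quantile normalization. The anaphylatoxin receptor gene C3ar1 was below the minimum, and C5ar1 did not exceed 0.04 FPKM.

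**Figure D3:**
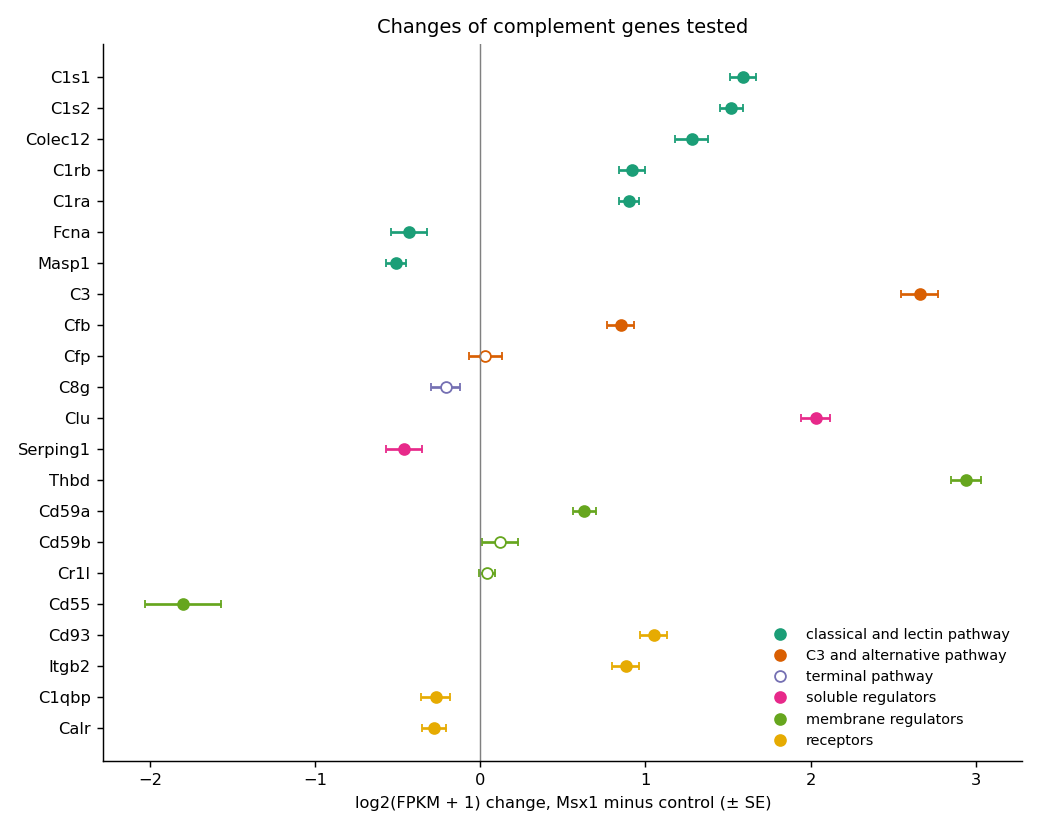
Change in log2(FPKM + 1), Msx1 minus control (x axis; bars, SE from limma), of the complement genes tested and named in the text, coloured by role; filled points were called at an adjusted p under 0.05 and open points were not. C3 (2.66) and Thbd (2.94) stand furthest right and Cd55 (-1.80) furthest left.

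Control replicate 2 was the highest control library for all 7 tested members, and for 14 of the 23 complement genes tested, against 37.6% of all genes tested. The 14 include those 7 members. Msx1 replicate 3, with the lower Alb level, was the highest Msx1 library for 4 of the 7, and the share of all genes for which it was highest was not computed. The source of the hepatocyte marker transcripts is not given in the labels, and what part that source had in the control levels was not tested. Without both libraries the Cd55 change was -1.58 against -1.80 with them, and 5823 genes in all were called against 6732. Leukocyte markers gave no even shift, as Lyz2 (lysozyme) was higher and Cd14 and Cd68 lower among 3 tested, and their summed FPKM was 33.0 to 39.1 in Msx1 and 32.2 to 34.1 in control libraries. Fibroblast markers also went both ways, with 4 of 6 tested higher, among them the proteoglycan gene Dcn (89.7 ± 5.51 FPKM in Msx1 and 5.07 ± 1.35 FPKM in control cells), and 2 lower, Pdgfra and Col1a2. Dpt, another of the 4, passed the minimum only through its Msx1 level (44.3 FPKM in Msx1 and 0.436 FPKM in control cells). Of 8 adipocyte markers 3 were tested and 2 were lower, Pparg and Fabp4. Fabp4 passed the minimum only through its control level. None of 7 endothelial markers passed the minimum, but their summed FPKM was 0.756 to 1.13 in Msx1 and 0.285 to 0.375 in control libraries. Their means went both ways: Cdh5, Kdr, Vwf and Emcn were higher in Msx1 cells, and Pecam1, Tek and Tie1 lower. The groups overlapped for Emcn, Pecam1 and Tie1, and Emcn was above 0 only in Msx1 replicate 2 (0.0584 FPKM). Cdh5, the highest of the 7 markers, averaged 0.555 ± 0.168 FPKM in Msx1 and 0.118 ± 0.0182 FPKM in control cells. Pecam1 averaged 0.022 FPKM in Msx1 and 0.0603 FPKM in control cells. Thbd and Cd93, which endothelium also expresses, were higher in Msx1 cells. The part of any of these in the complement results was not tested.

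**Figure D4:**
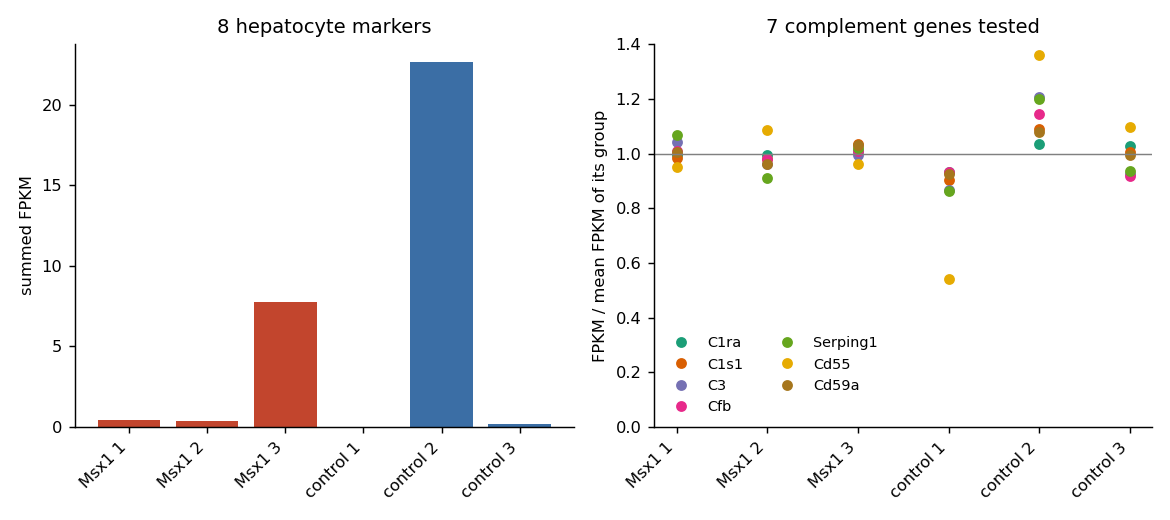
Left, summed FPKM of 8 hepatocyte markers in each library (Msx1 left, control right). Right, FPKM of the 7 complement genes tested, each divided by its mean in its own group; control replicate 2, with 22.6 summed marker FPKM, has the highest point of the control libraries for each of the 7.

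Over the 6 libraries, the genes whose log2(FPKM + 1) was most like that of C3 were Mical2 (Pearson's r = 0.9998), Myo1e (0.9997) and Tbc1d16 (0.9995), out of 9042 genes compared. With 6 libraries in 2 groups such values are common, and 481 genes exceeded 0.99. For Cd55, the member with the largest fall, they were Csnk1g1 (0.9988), Far1 (0.9987) and Tenm3 (0.998), and 57 genes exceeded 0.99. These likenesses mix the difference between groups with differences among libraries of a group, such as the low Cd55 level in control replicate 1. They are given as a description.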

How the data were processed

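RNA libraries of 3 Msx1 and 3 control C2C12 samples were made with Trizol and a NEBNext Ultra kit, per the labels' protocols. The authors deposited FPKM per RefSeq transcript (38468 rows), obtained with Trimmomatic, HISAT2 and StringTie on GRCm38 (mm10), per the submitters' processing notes, with versions and strand setting not given in the sources used here. StringTie estimates how reads divide among overlapping transcripts. Control columns, headed with a vector and a number, were matched by number to the control titles.

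FPKM were summed per symbol (24809 genes; 119 transcripts had no symbol). limma 3.58.1 (R 4.3.3), with an intensity trend, was fitted to log2(FPKM + 1), which understates changes of low genes, for the 12371 genes averaging 0.5 FPKM or more over 6 libraries, with Benjamini-Hochberg adjustment over all of them. Folds are ratios of mean FPKM. The fit was also run on simulated data with independent noise and far fewer changed genes than were called here. That run therefore does not check the calls under so widespread a change. Ratios within libraries were compared by an exact two-sided permutation test. Depth is unknown, since whole reads could not be recovered: only 40.1% to 44.5% of low FPKM came within 0.1 of whole steps, against 20% by an unrelated step.

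The members, lists and tests were chosen with earlier results of these data known. The naming rule took all members, their near copies, other complement genes past the minimum, and the 3 genes most like C3 and most like the member with the largest opposite change, if at 5 FPKM or more in one group. Other genes were named after their values were seen. A complement gene past the minimum is counted but not reported here. Sequences are RefSeq's (GRCm38.p6), aligned with Biopython 1.88. Alternatives were another pseudocount, other minima, 3 scalings, single transcripts, no trend, sample weights, a replicate block and leaving out libraries.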

Additional observations from a re-analysis of the deposited data

How the results depend on the processing

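The counts of calls over all genes, the 9 members and the wider list stayed within 1.5 times under every alternative run, and the 3 ratios kept their direction. The balance of calls over all genes turned from mostly lower to mostly higher under the 2 scalings given next. Over all genes, leaving out single libraries gave between 5581 calls (without Msx1 replicate 1) and 7090 calls (without control replicate 1). Each of the 7 tested members was called the same way in all 17. Over all genes, 40.4% of calls were higher on the deposited values, 51.2% with median-of-ratios scaling (3317 against 3161 lower) and 55.4% when totals were equalised leaving out Msx1 (3494 against 2814 lower). The median change of all genes was -0.07, 0.00 and 0.03 in these 3. Direction changed for 2 uncalled genes. Cr1l was at -0.004 with single transcripts, -0.0004 with sample weights and -0.01 without both libraries that held Alb, and Cfp ranged from -0.02 to 0.10 over all alternatives, at -0.01 without Msx1 replicate 2, -0.001 without Msx1 replicate 3 and -0.02 without control replicate 3. C8g was called with single transcripts (-0.41, adjusted p = 0.0135 by limma) and without Msx1 replicate 1 (-0.29, adjusted p = 0.0309 by limma). The C1qbp and Calr calls were also lost without Msx1 replicate 1 or 2, and that of C1qbp without Msx1 replicate 3 and without a minimum. The cause was not tested.

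Same-numbered libraries of the 2 groups deviated together by correlations of 0.055, 0.226 and 0.037, and differently numbered ones by -0.204 to 0.133. The labels do not say whether the numbers pair the libraries, and these values cannot settle it. With the replicate block 6747 genes were called, against 6732 without it, and the same 5 members were higher and 2 lower. C4b and most recognition and terminal genes were too low to be tested, and with depth unknown no limit can be set on them.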
